A study of Mus musculus with 2 samples.

Results

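The genes described here are 39 genes of the integrated stress response and of amino acid supply, taken as the array features whose annotated gene name is one of the 39. Of these, 38 gave signal well above background on both arrays, out of 24112 genes measured in that way, and the remaining gene, Fgf21, gave such signal in 1 sample alone. By role they are 13 transcription factors and regulators, 3 secreted hormones, 6 amino acid transporters, 11 enzymes of serine, one-carbon and amino acid metabolism, and 6 cytosolic tRNA synthetases. They were measured in total RNA of mouse brain, strain C57BL/6J, at postnatal day 10, on 1-colour Agilent arrays that read Cy3-labelled RNA with DNA probes. The 2 samples were brain RNA of the genotype GPHR F/F;Nes and littermate brain RNA of the genotype GPHR F/F as the control. There was 1 array for each, and both samples carry GPHR F/F. The GPHR protein, encoded by Gpr89, is a channel for anions that helps to keep the Golgi acidic, and the series addresses its loss in the brain. The labels spell out neither the Nes allele nor the deleted exons, and they do not say whether 1 animal or several gave each RNA.

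In the integrated stress response, kinases that sense different stresses phosphorylate the initiation factor eIF2, which lowers the translation of most mRNAs and raises that of the mRNA for the transcription factor ATF4. ATF4, paired with C/EBP proteins, is known to activate genes for amino acid uptake, for serine and one-carbon metabolism, for the charging of tRNAs and for further regulators such as CHOP, the product of Ddit3. In the nervous system the pathway is known from vanishing white matter disease, which is caused by mutations of eIF2B, and from peripheral neuropathies caused by mutations of tRNA synthetases such as Gars. Because ATF4 is controlled mainly at translation, mRNA levels of Atf4 and of its targets are separate readouts, and neither eIF2 phosphorylation nor protein was measured here.

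A relative signal below is a gene's processed spot intensity divided by the 75th percentile of the probes on its array, which was 173.4 intensity units in GPHR F/F;Nes and 259.5 units in its control. A difference is the log2 relative signal in GPHR F/F;Nes minus that in the control, averaged over the probes of the gene that were well above background on both arrays. The ± value is a technical error of that difference, combined from the scanner software's error of each spot, and is near 0.20 for a gene with 1 probe. It treats the probes of a gene as independent, so it shrinks with more probes and does not include their disagreement. With 1 array per genotype there is no replicate check, no spread between animals and no test, so "higher" and "lower" describe these 2 samples. Signals of different genes are not set against each other, since each probe has its own response.

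On the arrays as a whole, 67.0% of the probes were well above background in the control and 69.2% in GPHR F/F;Nes, and no spot was saturated. Gpr89 itself had a difference of -0.53 ± 0.22, from a single probe that the labels do not place inside or outside the deleted part. Xist was at least 55.8-fold higher in GPHR F/F;Nes, with no signal well above background in the control, whereas the Y-linked genes Ddx3y, Eif2s3y and Uty had such signal only in the control, so genotype and sex cannot be told apart. Markers of several cell types also stood apart between the samples. Of the markers measured on both arrays, 4 of 6 for meninges and fibroblasts, 2 of 3 for choroid plexus, 2 of 4 for microglia and 3 of 4 for endothelium and mural cells were at least 2-fold higher in GPHR F/F;Nes. All 6 neuronal markers were below 0, with a median of -0.54. In bulk tissue fewer cells of a type and less RNA per cell cannot be told apart, which holds for each difference below.

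Fgf21 and Gdf15, both secreted hormones, were the genes farthest above the control, and the arginine and lysine transporter Slc7a3 was the farthest below it. The amino acid genes lay mostly below the control, while the transcription factors and regulators were split. At least 2-fold higher were 3 of the 38 genes (7.89%), namely Gdf15, Pck2 and Nupr1, against 7.93% of all 24112 genes, which is the background share. At least 2-fold lower were 5 of 38 (13.2%), namely Slc7a3, Ddit4, Mthfd2, Chac1 and Slc7a1, against 1.37% of all genes. Below 0 were 24 of 38 (63.2%), against 43.1% of all genes, a share that depends on the level of the signal, as described below. The median difference was -0.22, a 1.17-fold lower signal, where the median of all genes was 0.07. The other 30 genes differed by less than 2-fold, 19 of them below 0 and 11 above. Of the 38 genes, 6 lay within their own technical error of 0, and 22 lay beyond 2 such errors, 14 below and 8 above. The same shares over all genes were not computed, so neither count sets these genes apart from the rest. The differences of all genes had a standard deviation of 0.57, itself larger than 2 such errors of a gene with 1 probe.

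**Figure D1:**
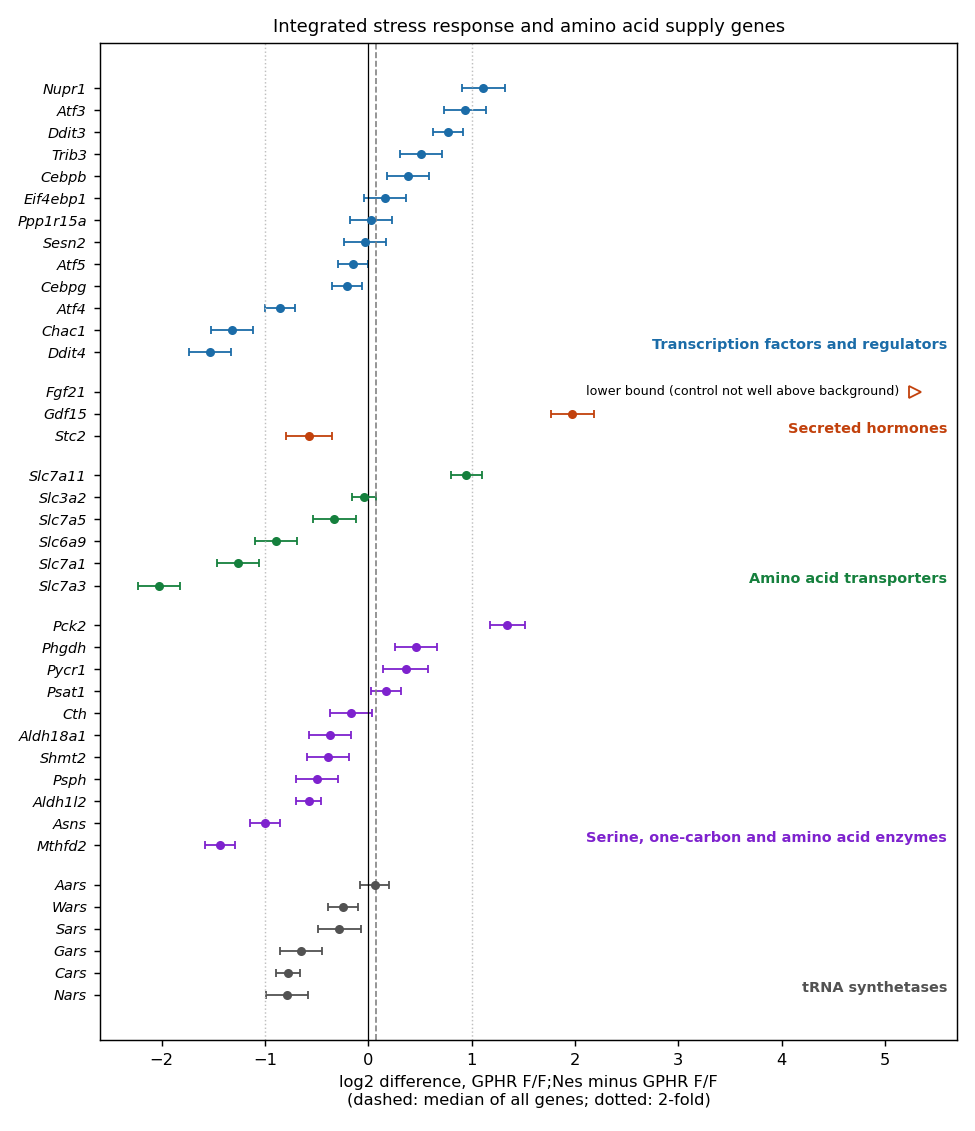
Log2 difference (GPHR F/F;Nes minus the control) of each gene (n = 1 array per genotype), grouped by role; bars are the technical error combined from the scanner software's spot errors, the dashed line is the median of all genes and the dotted lines mark 2-fold. The open triangle for Fgf21 is a lower bound, and 5 genes lie beyond the lower dotted line, from Slc7a1 at -1.26 to Slc7a3 at -2.02.

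Differences on these arrays depended on the level of the signal. With all genes split by level into 3 groups of like size, the dimmest group had a median difference of 0.34, and 15.5% of it was higher and 1.61% lower by 2-fold or more. In the brightest group the median was -0.07, so most of its genes lay below 0, with 3.07% higher and 1.17% lower by 2-fold or more. The exact share below 0 in each group was not computed. Most of the genes described here were bright: 26 lay in the brightest group, where 4 of them were at least 2-fold lower, 0 were 2-fold higher and their median was -0.35. A further 9 lay in the middle group, with a median of 0.06 for them and 0.05 for all genes there. Of all genes in the middle group, 5.25% were higher and 1.33% lower by 2-fold or more. That group held the 3 genes that were 2-fold higher, together with Mthfd2, the fifth of the lower genes. The remaining 3, Slc7a11, Stc2 and Pycr1, were in the dimmest group.

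**Figure D2:**
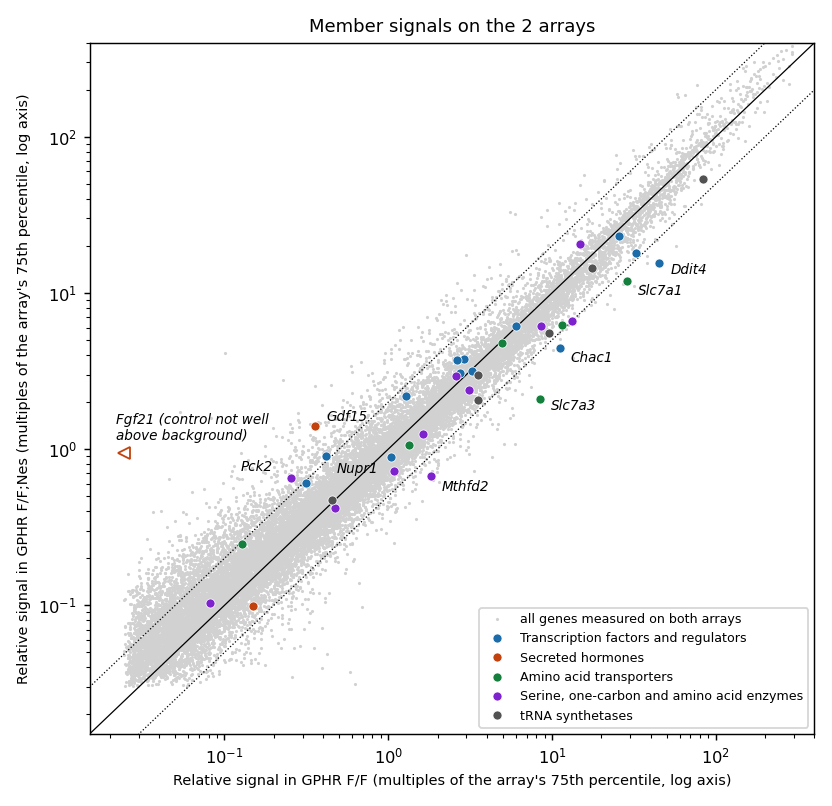
Relative signal in GPHR F/F (x axis) and GPHR F/F;Nes (y axis), both log axes, for all genes measured on both arrays (grey) and for the stress response and amino acid genes (coloured by role); the solid line marks equal signal and the dotted lines 2-fold. The named lower genes apart from Mthfd2 lie at control signals from 8.47 to 45.2, the named higher ones at 0.416 or less, and Fgf21 is drawn at the lowest level counted as well above background in the control.

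The setting of the scale matters for the sign of small values. Scaling each array to its spike-in RNAs, synthetic RNAs added in known amounts, lowers every difference by 0.95 and puts the median of all genes at -0.88. Under it Gdf15 alone stayed at least 2-fold higher, at 1.02, 22 genes were at least 2-fold lower, and the 11 genes above 0 and under 2-fold were all below 0. Centring each array on its median lowers every difference by 0.28. Under each of 12 other settings Slc7a3, Ddit4, Mthfd2, Chac1 and Slc7a1 stayed at least 2-fold lower and Gdf15 at least 2-fold higher. Pck2 kept that call in 10 settings and Nupr1 in 8.

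**Figure D3:**
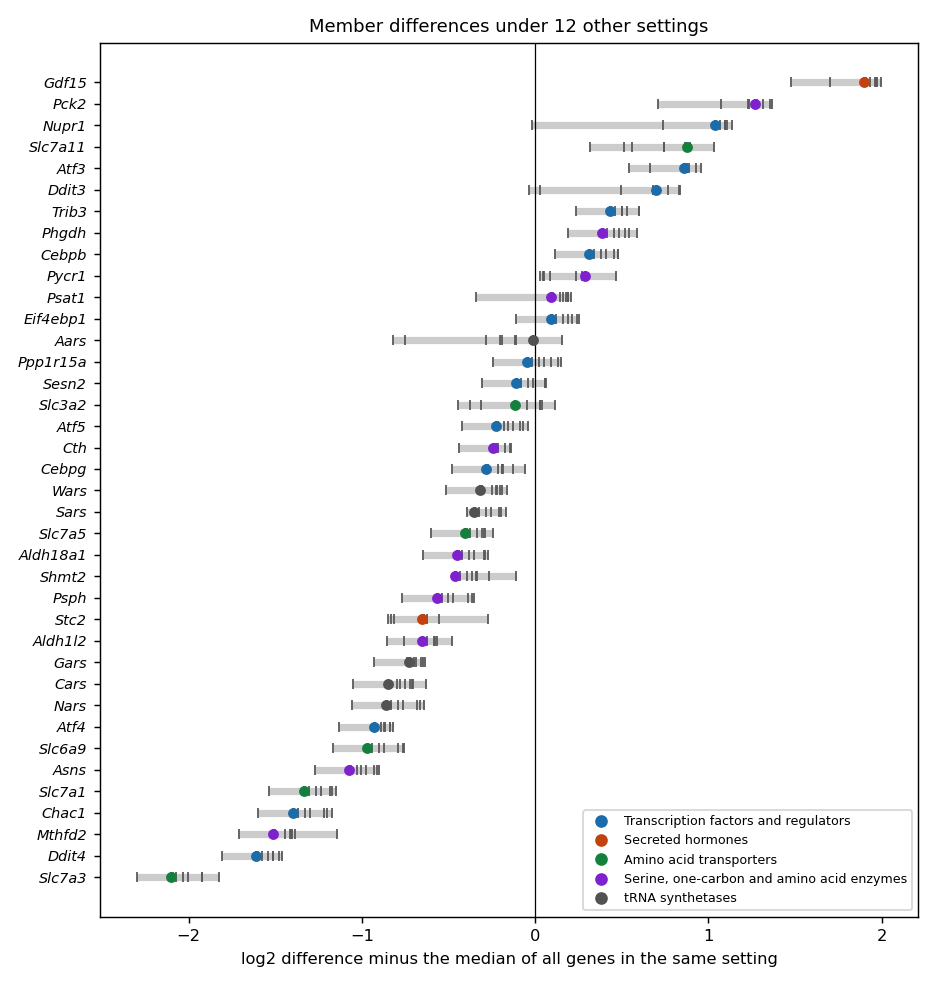
Difference of each gene minus the median difference of all genes in the same setting; coloured points are the values given in the text on this scale, and ticks and grey bars are the 12 other settings of scaling, background, filter and probe choice. Slc7a3 lies between -2.30 and -1.82 and Gdf15 between 1.47 and 1.997, whereas the bars of Nupr1 (-0.02 to 1.14), Ddit3 (-0.04 to 0.83) and Aars (-0.82 to 0.16) reach across 0.

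Several of these genes are known to be activated by ATF4 through a composite element in the promoter, the C/EBP-ATF response element. It was searched as TGATGNAAN on both strands, from 250 bases before to 50 bases after the start of each gene, in the RefSeq promoter sequences of GRCm38.p6. An entry was found for 31 of the 39 genes, and 11 of them (35.5%) held a match, 10 of these before the start. Over all 27025 genes with an entry the share was 4.50%. The genes were listed as members of this pathway, so that share describes the list. The stretches below are from matched genes on both sides of the control. The first 4 are from some of the matched genes higher in GPHR F/F;Nes, and the other 3 are from all the matched genes lower in it. Each is written 5′ to 3′ on the strand of the gene, ends before the start, and has the match in capitals. Where the match is on the other strand, the capitals are its reverse complement.
Fgf21: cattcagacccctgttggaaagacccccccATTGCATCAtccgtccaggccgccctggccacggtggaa
Nupr1: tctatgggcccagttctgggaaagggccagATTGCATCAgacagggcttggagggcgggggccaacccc
Pck2: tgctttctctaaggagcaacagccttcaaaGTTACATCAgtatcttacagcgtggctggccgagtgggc
Slc7a11: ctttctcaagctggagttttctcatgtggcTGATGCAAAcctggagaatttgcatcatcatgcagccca
Chac1: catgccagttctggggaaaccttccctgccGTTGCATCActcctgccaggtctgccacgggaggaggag
Asns: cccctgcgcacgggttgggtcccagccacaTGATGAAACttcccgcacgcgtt
Gars: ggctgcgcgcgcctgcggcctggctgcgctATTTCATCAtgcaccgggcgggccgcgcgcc

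On GRCm38.p6 these stretches lie at chr7:45615592-45615660 on the minus strand for Fgf21, chr7:126625543-126625611 on the minus strand for Nupr1, and chr14:55540132-55540200 on the plus strand for Pck2. Those of the remaining genes lie at chr3:50443641-50443709 (minus) for Slc7a11, chr2:119351018-119351086 (plus) for Chac1, chr6:7693210-7693262 (minus) for Asns and chr6:55037940-55038000 (plus) for Gars. The first base of the match lies 140 bases before the start in Fgf21, 111 in Nupr1, 104 in Pck2, 66 in Slc7a11, 194 in Chac1, 23 in Asns and 31 in Gars. In Slc7a11 a second match, on the other strand and in lower case here, begins 48 bases before the start. Aars, Atf3 and Pycr1 also held a match before the start, and Trib3 after it. Of the 10 genes with a match that were measured on both arrays, 7 were above 0 and 3 below, with a median of 0.43, a value smaller than the shift that spike-in scaling makes. Of the 20 with an entry and no match, 14 were below 0, with a median of -0.24. Slc7a1, Mthfd2, Ddit4 and Gdf15 were among these, so the match was found in genes of both directions and was missing from this window in others of both directions. Slc7a3, Slc7a5, Cars, Nars, Wars, Eif4ebp1, Cth and Aldh1l2 were not matched to an entry.

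Upstream of ATF4, the listed genes of eIF2, its kinases and their circuit differed by less than 2-fold. Of the eIF2 subunit genes the list held Eif2s1 alone. It left out the Y-linked Eif2s3y, which was well above background only in the control (at least 38.4-fold). All 13 listed genes of this circuit were measured, 5 above and 8 below 0, with a median of -0.04. The kinase gene Eif2ak2, whose product PKR senses double-stranded RNA, stood at 0.83 ± 0.21. Gcn1l1, which helps to activate the amino acid sensor GCN2, was dim, at 0.069 in the control and 0.096 in GPHR F/F;Nes (0.47 ± 0.26). The dimmest group of all genes, where such dim genes lie, had a median of 0.34. The lowest were Eif2b3, a subunit of the exchange factor eIF2B, at -0.35 ± 0.12, and Ppp1r15b, which targets a phosphatase to eIF2, at -0.34 ± 0.20. Eif2ak3, the gene for the endoplasmic reticulum sensor PERK, stood at 0.13 ± 0.20, and Eif2ak4, the gene for GCN2, at 0.03 ± 0.12.

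Among the transcription factors, Atf4 mRNA was lower and the genes of 2 factors that act downstream of it, Atf3 and Ddit3, had higher values. The relative signal of Atf4 was 32.6 in the control and 18.0 in GPHR F/F;Nes, a difference of -0.86 ± 0.14. Both of its probes were lower, at -0.92 and -0.79, so the gene stood 1.81-fold lower, short of 2-fold. Atf3, an early stress-induced factor, read 0.316 and 0.604 (0.93 ± 0.21). Ddit3 read 1.28 and 2.19 (0.77 ± 0.14), but its probes disagreed: the probe to the RefSeq mRNA read 0.01 ± 0.20 and the probe to an Ensembl transcript 1.53 ± 0.20. The Ddit3 value thus rests on 1 of its 2 probes. Nupr1, a small stress-induced nuclear protein, read 0.416 and 0.899 (1.11 ± 0.21, 2.16-fold higher), and a second, dim probe to an Ensembl transcript was well above background in the control alone. Atf5, another factor controlled at translation, and the C/EBP partners Cebpg and Cebpb stood at -0.15 ± 0.14, -0.21 ± 0.14 and 0.39 ± 0.20.

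The regulators that ATF4 and CHOP are known to induce went both ways. Ddit4 encodes REDD1, an inhibitor of mTORC1 signalling, and read 45.2 in the control against 15.6 in GPHR F/F;Nes, a difference of -1.53 ± 0.20, or 2.90-fold lower. Chac1, which degrades glutathione, read 11.2 against 4.46, a difference of -1.32 ± 0.20, or 2.50-fold lower. The pseudokinase gene Trib3, an inhibitor of ATF4 and CHOP activity, was on the other side, at 2.63 against 3.74 (0.51 ± 0.20). Sesn2, another restraint on mTORC1, Ppp1r15a, the stress-induced partner of the eIF2 phosphatase, and the translation repressor gene Eif4ebp1 stood at -0.04 ± 0.20, 0.03 ± 0.20 and 0.16 ± 0.20, each within its technical error of 0. Over the 13 genes of the class 7 were above 0 and 6 below, with a median of 0.03 that turned to -0.25 under median centring and to -0.93 under spike-in scaling. Ddit4, Chac1 and Atf4 were the 3 lowest of the class, and Nupr1, Atf3 and Ddit3 the 3 highest.

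The amino acid transporters ranged from -2.02 to 0.95. Slc7a3, a carrier of arginine, lysine and ornithine that neurons express, read 8.47 in the control and 2.08 in GPHR F/F;Nes. That is a difference of -2.02 ± 0.20, or 4.07-fold lower, where the median of all genes of like level was -0.12. Its single probe lies on chromosome X, at chrX:98274644-98274703 of mm9. Slc7a1, the widely expressed carrier of the same amino acids, read 28.6 and 11.96, a difference of -1.26 ± 0.20, or 2.40-fold lower. A related carrier of cationic amino acids outside the 39 genes, Slc7a2, was dim and lay on the other side, at 0.080 and 0.127 (0.67). The glycine transporter gene Slc6a9, in brain mostly a gene of glia, read 11.6 and 6.21 (-0.90 ± 0.20). Slc7a5 and Slc3a2, whose products form the transporter LAT1 for large neutral amino acids, stood at -0.33 ± 0.20 and -0.04 ± 0.12.

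Slc7a11, whose product joins that of Slc3a2 to exchange glutamate for cystine, was the single transporter gene above 0. It was dim, at 0.127 in the control and 0.246 in GPHR F/F;Nes (0.95 ± 0.15), and its 3 probes read from 0.61 to 1.14, while all genes of like level had a median of 0.23. The 3 probes of Slc3a2 read from -0.40 to 0.58, so its mean near 0 joins probes of opposite sign. In the class of 6, 5 were below 0 and the median was -0.61, negative in each of the 12 other settings. Of 17 other amino acid transporter genes measured, none was 2-fold apart, 7 were above 0 and 10 below, and the median was -0.07. Slc1a5 (0.89), a carrier of neutral amino acids, and Slc7a7 (0.89), which exchanges cationic for neutral ones, were the highest there. The lowest were the neutral amino acid carriers Slc1a4 (-0.75) and Slc38a2 (-0.66).

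The enzymes of amino acid and one-carbon metabolism included 1 gene at least 2-fold lower and 1 at least 2-fold higher, both mitochondrial enzymes. Mthfd2, which oxidises one-carbon units carried by folate, read 1.81 in the control and 0.669 in GPHR F/F;Nes, a difference of -1.44 ± 0.14, or 2.71-fold lower. Its probes read -1.53 and -1.34, both beyond 2-fold. Asns, which makes asparagine and is a widely used ATF4 target, read 13.2 and 6.61, a difference of -0.997 ± 0.14 that falls just short of 2-fold, with probes at -1.01 and -0.99. Pck2, which makes phosphoenolpyruvate in mitochondria, lay on the other side at 0.256 and 0.650, a difference of 1.34 ± 0.17, or 2.54-fold higher. Its probes read 1.33 and 1.36. For these 3 genes the probes of a gene lay closer together than the technical error of 1 probe.

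Along the serine pathway the enzyme genes did not stand together. Phgdh, the first enzyme of serine synthesis, read 14.9 in the control and 20.5 in GPHR F/F;Nes (0.46 ± 0.20), Psat1, the second, 2.60 and 2.92 (0.17 ± 0.14), and Psph, the last, 8.60 and 6.10 (-0.49 ± 0.20). Shmt2, which splits serine to glycine in mitochondria, stood at -0.39 ± 0.20 and the folate enzyme gene Aldh1l2 at -0.58 ± 0.12, its 3 probes from -0.71 to -0.45. Shmt2 stood at 0.16 without the filter on dim probes. Outside the 39 genes, the mitochondrial folate enzyme genes Mthfd1l and Mthfd2l stood at -0.38 and 0.04, so genes of this kind lay on both sides of 0. In proline synthesis Aldh18a1 stood at -0.37 ± 0.20 and Pycr1 at 0.36 ± 0.22, the latter dim, with a median of 0.37 for all genes of like level. Cth, which makes cysteine from cystathionine, stood at -0.17 ± 0.21. The class of 11 had 7 genes below 0 and a median of -0.37. Of 19 other genes of amino acid and folate enzymes, none was 2-fold apart, 11 were above 0 and 8 below, and the median was 0.04. Prodh (0.83), which degrades proline, and Tyms (0.71), which makes thymidylate, were the highest, and the transaminase genes Got1 (-0.80) and Bcat1 (-0.78) the lowest.

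**Figure D4:**
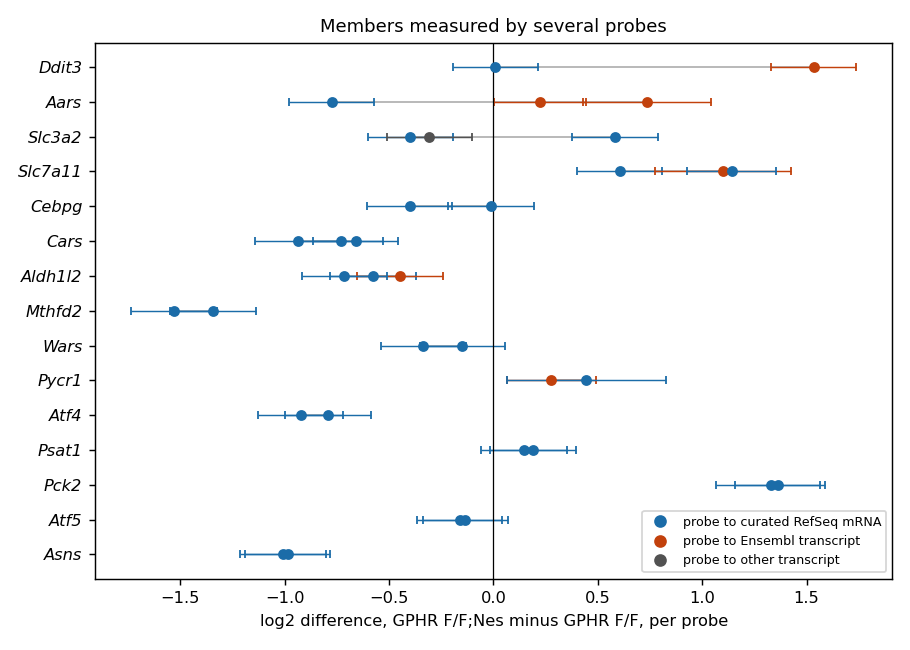
Log2 difference of each probe, with its technical error, for the 15 genes measured by several probes, coloured by the transcript the probe was designed to; the genes are ordered by the spread of their probes. Asns, Pck2, Mthfd2 and Atf4 have probes close together, whereas Ddit3, Aars and Slc3a2 have probes far apart, the last 2 on both sides of 0.

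Of the 6 cytosolic tRNA synthetase genes, which charge tRNAs with alanine, cysteine, glycine, asparagine, serine and tryptophan, 5 were below 0 and none was 2-fold apart. Nars read 9.59 in the control and 5.56 in GPHR F/F;Nes (-0.79 ± 0.20), Cars 3.55 and 2.07 (-0.78 ± 0.12), and Gars 84.0 and 53.3 (-0.66 ± 0.20). The 3 probes of Cars read from -0.94 to -0.66, so each of them was lower. Sars and Wars were nearer to 0, at -0.28 ± 0.20 and -0.24 ± 0.14. Aars was the one gene above 0, at 0.06 ± 0.14, and its probes disagreed. The bright probe to its RefSeq mRNA read 17.7 and 10.3 (-0.78 ± 0.20), and dim probes to Ensembl transcripts read 0.22 ± 0.22 and 0.74 ± 0.31. The median of the class was -0.47, and -0.72 with probes to curated RefSeq mRNAs alone, a choice made after the probes of Aars had been seen.

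The synthetase genes outside the list showed smaller differences. Of 14 other cytosolic ones, 10 were below 0, with a median of -0.19, the lowest being Yars (-0.60) and Mars (-0.57) and the highest Dars (0.21) and Hars (0.15). Of 17 mitochondrial ones, 10 were below 0, with a median of -0.06, from Mars2 (-0.33) and Lars2 (-0.32) to Sars2 (0.43) and Wars2 (0.65). No synthetase gene on any of these lists was 2-fold apart.

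The secreted hormones held the genes farthest above the control. Fgf21, a stress-induced hormone best known from liver that also acts on the brain, gave 164.1 intensity units in GPHR F/F;Nes, while the 1.96 units of the control were not well above background. Against the lowest signal well above background in the control, it was at least 39.1-fold higher. Of the 26519 genes seen on either array, 2.66% had like Fgf21 a lower bound of 2-fold or more and no signal well above background in the control. The single Fgf21 probe lies at chr7:52869305-52869364 of mm9, on the minus strand. Gdf15, a hormone that acts on receptors of the hindbrain to lower food intake, gave 243.9 units in GPHR F/F;Nes and 92.9 units in the control. The relative signal was 0.358 in the control and 1.41 in GPHR F/F;Nes, a difference of 1.97 ± 0.21, or 3.93-fold higher, where all genes of like level had a median of -0.002. Its single probe lies at chr8:73153293-73153352 of mm9, on the minus strand. Stc2, a secreted glycoprotein, was not with them: it was dim, at 0.149 and 0.100, with a difference of -0.58 ± 0.23 against a median of 0.30 for all genes of like level. The 2 hormone genes that were higher are thus each measured by 1 probe.

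Other reported targets of ATF4 or CHOP stood mostly below the control. Of 12 measured, 9 were below 0, the median was -0.22 and none was 2-fold lower. Cebpd, a C/EBP factor also induced by inflammation, read 3.32 in the control and 13.0 in GPHR F/F;Nes (1.97 ± 0.20) and was the one gene 2-fold higher. Sesn3 (0.20) came next and Ero1l (0.14) was the other one above 0, and the lipoprotein receptor gene Vldlr (-0.84) and the cell death gene Bbc3 (-0.45) were the lowest. The chaperone genes of the endoplasmic reticulum, which are induced mainly through other arms of the unfolded protein response, lay higher. Of 10 measured, 8 were above 0 with a median of 0.53, led by Dnajc3 (0.82) and Pdia4 (0.82), with Hspa5, the main chaperone BiP, at 0.57 ± 0.12. Below 0 were Dnajb9 (-0.03) and Xbp1 (-0.24), the latter a transcription factor of the unfolded protein response that was counted in this list. None reached 2-fold, and spike-in scaling makes a shift larger than this median.

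**Figure D5:**
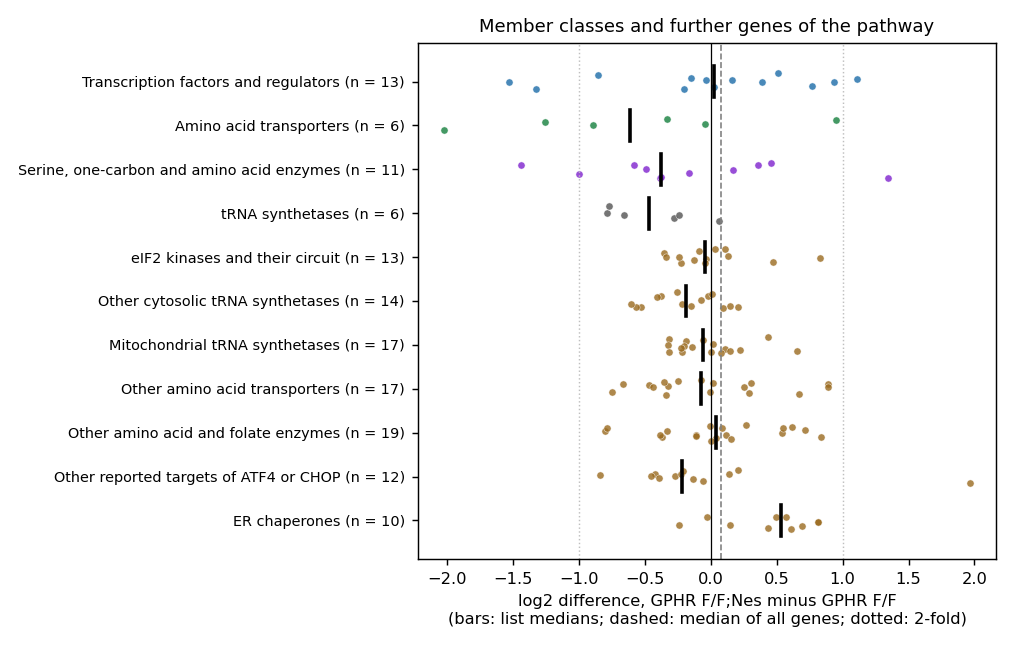
Log2 difference of each measured gene, GPHR F/F;Nes minus the control, by class and by further list of the pathway, with the number of genes in brackets; thick bars are list medians, the dashed line the median of all genes and dotted lines 2-fold. The transporter, enzyme and synthetase classes have medians of -0.61, -0.37 and -0.47, the chaperone list, which includes Xbp1, 0.53, and Cebpd at 1.97 is the one gene of the 7 further lists beyond 2-fold.

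Cell type markers also differed between the samples, and their values are given here beside those above. Summed over the measured markers, the relative signal of choroid plexus was 0.621 in the control and 5.44 in GPHR F/F;Nes, with the largest differences in Ttr (5.35) and Folr1 (1.43), with Clic6 well above background there and not in the control (at least 4.54-fold) and Kl not measured. For meninges and fibroblasts the sums were 7.30 and 9.88, and the largest differences were those of Slc6a13 (2.84) and Col3a1 (2.62). Most of both sums came from Dcn, at 6.48 and 6.18 (-0.07), since a sum gives more weight to genes with brighter probes. For endothelium and mural cells they were 0.654 and 1.69, with the largest differences in Vtn (2.89) and Flt1 (1.35), with Cldn5 not measured. For microglia they were 1.44 and 2.03, with the largest differences in Cx3cr1 (1.69) and C1qa (1.24), with Tmem119 well above background there and not in the control (at least 4.60-fold) and P2ry12 not measured. Each of these 4 sums was higher in GPHR F/F;Nes, as was the astrocyte sum given below. Neuronal markers summed to 24.5 and 15.5, with the largest differences in Nefl (-1.14) and Slc17a7 (-0.89). Oligodendrocyte lineage markers summed to 9.78 and 3.85, with the largest differences in Gpr17 (-2.46) and Sox10 (-0.88), while astrocyte markers summed to 12.6 and 18.7, with the largest differences in Gfap (0.82) and Aqp4 (0.58). Of 3 erythrocyte genes 1 was measured, Hba-a1, at -0.28. The part of these cell types and of sex in the differences of the stress response and amino acid genes was not tested.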

How the data were processed

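Per the labels' protocols, TRIzol was used to extract RNA of mouse brain (n = 1 array per genotype), which was labelled with Cy3 by a low-input method of Agilent. The scans were read with Agilent Feature Extraction 11.5.1.1, per the submitters' processing notes. The deposited scanner output gives for each of 62976 spots an intensity on a linear scale, with background subtracted and spatial trends removed per the file headers, and the deposited flags (other values, 0 or 1) mark spots well above background or outlying. The arrays share 1 slide and 1 scan. The deposited value table is on the log2 scale and equals the log2 processed intensity plus 1 constant per array (-8.01 and -7.43), within 0.001 for 99.9% of the probes. Its column medians are -3.19 and -2.92, it is not centred per probe, and the origin of the constants was not given in the sources used here. Positions of probes are on mm9, per the file headers.

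Control spots and 96 outlier spots were left out, log2 values of spots of 1 probe were averaged, and the 75th percentile over the probes of an array was subtracted. For genes well above background on 1 array alone, a bound was taken against the dimmer array, at the lowest signal that was well above background there (5.06 units in GPHR F/F;Nes, 6.28 units in its control) or at the probe's own signal where that was higher. The median of genes of like level was taken over genes within 0.25 log2 units of mean signal. With 1 array per group no test was possible and no p-values are given, and the small number of arrays limits the precision. The members, their classes, the further lists and the rule for naming genes (all members, the 2 ends of each further list, the 2 largest marker differences) were chosen with earlier results of these data known. Slc7a2, Mthfd1l, Mthfd2l, Ero1l, Eif2ak3, Eif2ak4, Hspa5 and Dcn fall outside that rule and were named after their values were seen. Array gene names of all 39 genes were used as given; 32993 of 56603 probes matched a RefSeq accession of GRCm38.p6, a table used for names and promoter sequences. Exons, introns and UTRs under the probes were not analysed here. The calculation was tested on simulated arrays. Alternatives were other scalings, background corrections, filters, probe choices and thresholds. Python 3.11.15, numpy 2.4.6, pandas 2.3.3, R 4.3.3 and limma 3.58.1 were used.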

Additional observations from a re-analysis of the deposited data

How the results depend on the processing

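The counts and medians of the classes kept their value, within 1.5-fold or within the technical error, in 68 of 88 recomputations under 14 alternatives. The others follow. With each array centred on its median, 10 of the 38 genes were 2-fold lower, against 3.39% of all genes. The medians were then -0.50 over all members, -0.25 for transcription factors and regulators, -0.89 for transporters, -0.65 for enzymes and -0.74 for tRNA synthetases. With spike-in scaling 1 gene was 2-fold higher and 22 lower, against 0.77% and 38.6% of all genes, and these medians were -1.18, -0.93, -1.57, -1.33 and -1.42. After normexp background correction 1 gene was 2-fold higher, against 1.37% of all genes, and without the filter on dim probes the enzyme median was -0.17. At 1.5-fold 6 of the 38 genes were higher and 11 lower, against 18.1% and 5.73% of all genes. At 3-fold the counts were 1 and 1, against 2.28% and 0.25% of all genes. With probes to curated RefSeq mRNAs alone, added after seeing the data, the tRNA synthetase median was -0.72. The median of all genes moved by -0.28 with median centring, -0.95 with spike-in scaling, -0.11 with quantile normalization and 0.20 without the filter. The share of higher genes among all 2-fold genes was 85.3% as reported, 68.4% after quantile normalization, 56.9% with median centring, 72.4% after loess, 78.6% after normexp and 1.96% with spike-in scaling. Set against the median of all genes, the members' median lay between -0.42 and -0.18 in these settings. No paired analysis was possible because each group holds 1 sample.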
